A study of Mus musculus with 12 samples.

Results

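Binding of the transcription factors MYC and MAX was examined at 10 genes of the circadian clock in the mouse macrophage line RAW264.7. The genes are Per1, Per2, Cry1, Cry2, Nr1d1, Nr1d2, Dbp, Ciart, Bhlhe40 and Bhlhe41, out of 21887 protein-coding genes in the gene table. They were chosen by name because the clock regulates them through E-boxes, and with earlier results of these data known. A peak was assigned to a gene when at least 1 bp of it lay in the gene's extent or in the 10 kb on either side. The measurements are peak lists from chromatin immunoprecipitation and sequencing (ChIP-seq), 1 list for each of the 2 antibodies in each of 4 treatments: untreated cells, RANKL at 50 ng/ml for 4 h, I-BET at 500 nM for 4 h, and RANKL with I-BET for 4 h. RANKL is the cytokine that starts osteoclast formation, and I-BET is an inhibitor of the BET bromodomain proteins. All groups are the same established line, which the labels give with bone marrow as its source, and the duration of culture of the untreated cells is not given. With 1 list per antibody and treatment, no difference between treatments has a replicate check, and no test between treatments was made.

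The circadian clock is a feedback loop of transcription. CLOCK and its partner BMAL1 (gene Arntl) are basic helix-loop-helix proteins that bind E-boxes, of which CACGTG is the canonical form, and switch on the genes of their own inhibitors. MAX, with MYC or with other partners, reads the same CACGTG letters, so clock promoters offer sites that both families can bind. Macrophages have a working clock, and REV-ERB proteins, the products of Nr1d1 and Nr1d2, are known there as repressors of inflammatory genes.

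The MAX lists held between 6307 and 36785 peaks, the longest being that of I-BET, and the MYC lists between 11 and 312. Of 8 macrophage genes looked up as a check of the line, 7 had a MAX peak in each list but that of the combination, where 6 had one, with Adgre1 at 0 in every list. Among all protein-coding genes the share with a MAX peak was 37.4% untreated, 42.3% with RANKL, 65.0% with I-BET and 30.0% with both. Of 6 genes of liver, neurons and lymphocytes, 0 had a MAX peak in 3 of the lists and 2 (Apoa1 and Syn1) had 1 with I-BET. A peak shows binding and not expression, so this does not settle the cell type.

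The sequences below show where the E-box letters lie next to the start sites of 5 of the genes. Each is the 250 bases upstream of a RefSeq start site, read 5′ to 3′ on the strand of the gene, from RefSeq (GRCm38.p6, the same assembly as mm10). Capitals mark the E-box CACGTG, the related form CACGTT (read as AACGTG from the other strand) and the form CACGCG (read as CGCGTG). Ciart, Cry1, Per1 and Bhlhe41 are shown because they are the genes with CACGTG. Nr1d2 is shown because it held the member peak with the highest rank in the I-BET list, and its stretch has none of the 3 motifs. That peak ran from -553 to 1169 relative to the start, so most of its sequence was not searched. The positions are chr3:95882229-95882478 (minus strand) for Ciart, chr10:85185055-85185304 (minus) for Cry1, chr11:69098699-69098948 (plus) for Per1, chr6:145865421-145865670 (minus) for Bhlhe41 and chr14:18239107-18239356 (minus) for Nr1d2. In the combination list no peak covered the Bhlhe41 stretch, and the peak at Nr1d2 ended inside its stretch.
Ciart: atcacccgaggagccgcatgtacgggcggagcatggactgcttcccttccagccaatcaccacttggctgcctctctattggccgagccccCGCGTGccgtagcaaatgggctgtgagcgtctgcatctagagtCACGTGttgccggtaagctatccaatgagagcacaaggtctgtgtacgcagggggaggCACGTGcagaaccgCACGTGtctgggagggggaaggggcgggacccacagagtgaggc
Cry1: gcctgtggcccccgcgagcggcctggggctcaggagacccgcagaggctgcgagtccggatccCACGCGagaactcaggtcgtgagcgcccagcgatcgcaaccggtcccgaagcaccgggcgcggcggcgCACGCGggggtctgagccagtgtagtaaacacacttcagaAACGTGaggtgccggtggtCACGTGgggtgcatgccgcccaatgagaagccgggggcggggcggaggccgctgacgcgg
Per1: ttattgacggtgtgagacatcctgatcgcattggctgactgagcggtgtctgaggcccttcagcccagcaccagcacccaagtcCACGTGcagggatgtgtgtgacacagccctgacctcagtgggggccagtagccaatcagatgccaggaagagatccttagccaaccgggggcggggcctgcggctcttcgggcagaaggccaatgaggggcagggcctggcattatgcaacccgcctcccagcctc
Bhlhe41: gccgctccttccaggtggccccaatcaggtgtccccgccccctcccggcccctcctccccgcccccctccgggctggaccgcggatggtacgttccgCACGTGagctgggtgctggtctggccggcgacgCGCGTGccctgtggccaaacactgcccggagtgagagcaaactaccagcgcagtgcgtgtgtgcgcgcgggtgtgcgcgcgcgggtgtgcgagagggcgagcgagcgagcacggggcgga
Nr1d2: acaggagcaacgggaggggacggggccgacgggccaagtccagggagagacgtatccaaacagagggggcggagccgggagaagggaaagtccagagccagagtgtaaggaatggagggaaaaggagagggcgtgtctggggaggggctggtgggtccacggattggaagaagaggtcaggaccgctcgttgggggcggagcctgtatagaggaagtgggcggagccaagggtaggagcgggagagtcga

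The promoter table held 9 promoters of 8 of the genes, 2 of them for Per1. Per2 and Bhlhe40 were not matched. CACGTG occurred 6 times in the 300-base promoters (250 bases before to 50 after the start) of 4 genes. Ciart, which encodes a repressor of CLOCK and BMAL1, had 3 copies, beginning at -116, -58 and -44 relative to the start, and the last pair was 8 bases apart. Cry1 had 1 copy at -60, Bhlhe41 1 at -153 and Per1 1 at -166. At least 1 CACGTG was present in 7.15% of all 32851 promoters of this length and at least 3 in 0.0883%. Among the 3210 promoters with a MAX peak in all 4 lists, 22.5% held CACGTG. Promoters were not matched for base composition.

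Both strands were searched for all motifs, and each match of the palindrome CACGTG was counted once. CACGTT was found in the promoters of Cry1, Cry2 and Nr1d1 (4.68% of all promoters). CACGCG was found in 6 of the 9 promoters, those of Ciart, Cry1, Cry2, Dbp, Bhlhe41 and the downstream Per1 start (9.27% of all promoters). The loose form CANNTG, which includes every CACGTG, was found in 8 of 9 (72.3% of all promoters), with Nr1d2 the one without. TTATGTAA, a form of the D-box that DBP binds, was in 0 of 9 (0.938% of all promoters), and AGGTCA, the half-site of nuclear receptors such as the REV-ERBs, was in those of Per1 and Nr1d2 (16.3%). A match is a run of letters and does not show a bound site.

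MAX was listed at all 10 genes in all 4 treatments, and MYC at none of them in any treatment. Of all protein-coding genes, 37.4% had a MAX peak by the same rule in the untreated list, 42.3% in that of RANKL, 65.0% in that of I-BET and 30.0% in that of both, and 26.7% had one in all 4 lists. The extents of the clock genes ran from 3758 bp (Ciart) to 53355 bp (Cry1), with a median of 11152 bp against 17169 bp for all protein-coding genes, and the part of gene length in this count was not tested. For MYC the share of all genes with a peak was 2.05% without treatment, 2.02% with RANKL, 0.434% with I-BET and 0.0640% with both, so that 0 of 10 is near this background and is no result about the clock genes. Among the 5838 genes with MAX peaks in all 4 lists, 11.4% had a MYC peak in at least 1 MYC list. The nearest MYC peak to any of the genes lay 363 kb from Per2 in untreated cells, 115 kb from Bhlhe40 with RANKL, 81.4 kb from Dbp with I-BET and 299.5 kb from Per1 with both. Absence from a list does not show that MYC was absent from a gene.

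The best peaks of the clock genes stood high in their lists. The authors' score ranks peaks within a list, and the rank is given here as a percentile of the list's length, where a small value means a high score. The best peak of each gene had a median percentile of 13.6 without treatment (1.54 to 51.3), 5.94 with RANKL (2.06 to 22.7), 1.86 with I-BET (0.269 to 12.3) and 10.1 with both (2.08 to 25.7). Over all genes with a MAX peak the median was 39.1, 37.1, 16.4 and 41.3 in the same order. The best peak lay in the top 10% of its list for 4 of the 10 genes without treatment (5.79% of all genes), 8 with RANKL (6.99%), 9 with I-BET (22.3%) and 5 with both (4.26%). These shares are of all 21887 genes, including those without a MAX peak. Among genes with a peak it was 1268 of 8175, 1529 of 9250, 4883 of 14223 and 933 of 6566 in the same order. Since the lists differ in length, a percentile in 1 list does not show a change from another.

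**Figure D1:**
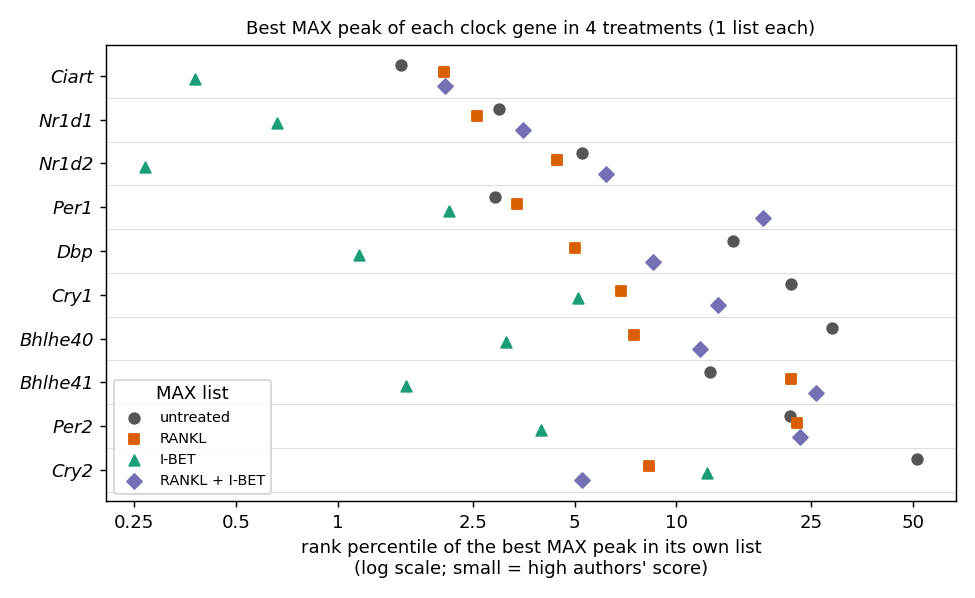
Rank percentile of the best MAX peak of each of the 10 clock genes in its own list (x axis, log scale, small values mean a high authors' score), with 1 symbol per treatment and genes ordered by their mean over the 4 lists. Ciart, Nr1d1 and Nr1d2 lie at 6.20 or below in every list, and Cry2 in untreated cells is the value furthest to the right at 51.3.

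In order of the mean percentile over the 4 MAX lists the genes were Ciart (1.51), Nr1d1 (2.44), Nr1d2 (4.05), Per1 (6.61), Dbp (7.35), Cry1 (11.7), Bhlhe40 (12.8), Bhlhe41 (15.4), Per2 (17.9) and Cry2 (19.3). Neighbours in this order overlapped in their range over the lists, as with Dbp (1.15 to 14.7) and Per1 (2.13 to 18.0). The untreated value of Dbp, 14.7, comes from a site beyond the gene, on Sphk2 and Rpl18. The untreated peak inside Dbp stood at 15.8. The combination value of Nr1d1, 3.52, also comes from a site beyond the gene, and its start-site peak there stood at 13.4. For Bhlhe41 the values of all 4 lists come from a site beyond the gene. The ranges of Ciart (0.378 to 2.08) and of Per2 (3.97 to 23.1) did not overlap.

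Ciart, also called Chrono, had 1 peak that spanned its start site in every list. It ranked 136 without treatment, 224 with RANKL, 139 with I-BET and 131 with both, so that it stayed among the top 224 peaks of lists of very different length. The peak covered all 3 CACGTG copies in all 4 lists, and the copies lay 139 to 211 bases from the centre of the untreated peak and 157.5 to 229.5 from that of RANKL. For the I-BET peak the distances were 284.5 to 356.5 bases, and for the combination 133 to 205. In the I-BET list the peak was chr3:95881860-95883392. The extent of the neighbouring gene BC028528 lies within 10 kb of this peak, and the gene was assigned the same peak, so it has the same percentiles. The genes with the most similar percentiles after it were Mtg1 and Paox, at 1.88 without treatment, 1.88 with RANKL, 0.152 with I-BET and 2.09 with both (Euclidean distance 0.444 over the 4 lists). Each rank occurs once in a list, so the equal values of Mtg1 and Paox mean that they share their best peaks.

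Nr1d1 and Nr1d2 encode the nuclear receptors REV-ERB alpha and beta, which repress Arntl. Nr1d1 had 4 peaks without treatment, 4 with RANKL, 5 with I-BET and 3 with both. The peak at its start site ranked 961, 281, 480 and 846 in that order. A peak inside the gene, with its merged region centred 1384.5 bp downstream of the start, stood at percentile 2.998 in untreated cells and ranked 320 with RANKL, 243 with I-BET and 1269 with both. The start-site and internal sites were thus in all 4 lists. A site 7318 bp beyond the start-site end of the gene, at the far end of the non-coding gene Gm31862, ranked 500, 286, 705 and 222. A weaker site further inside Nr1d1 ranked 4453 in untreated cells, 2612 with RANKL and 10804 with I-BET, and was not listed with both. The 3' end of Nr1d1 overlaps Thra, a thyroid hormone receptor gene on which no peak of the window fell.

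Nr1d2 had a single peak in each list, over its start site and the first part of the gene. It ranked 466 without treatment, 484 with RANKL, 99 with I-BET and 391 with both. The peak was wide, at 1315 bp without treatment, 1378 bp with RANKL, 1723 bp with I-BET and 999 bp with both, against list medians of 443, 483, 480 and 415 bp. The upstream sequence of Nr1d2, printed above, has no capital letters. In every list the peak reached downstream beyond the searched promoter, and motifs in that part were not looked for.

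Per1 and Per2 encode the period proteins, which together with the cryptochromes inhibit CLOCK and BMAL1. Per1 had 3 peaks without treatment, 3 with RANKL, 8 with I-BET and 2 with both. The site at the upstream end of the gene's extent ranked 258 without treatment, 367 with RANKL, 1510 with I-BET and 1364 with both. The site at the start that carries CACGTG ranked 6087, 1370, 784 and 1136. In untreated cells this was the lowest-ranked of the Per1 peaks, at percentile 68.9, and with both compounds the highest, at 18.0. The CACGTG lay 25.5 bases from the centre of the untreated peak, 35.5 from that of RANKL, 155.5 from that of I-BET and 15 from that of the combination. A site at the downstream Per1 start ranked 4938 in untreated cells, 5804 with RANKL and 7864 with I-BET, and was not listed with both. Of the other 5 sites with I-BET, 1 lay on Vamp2 and 1 was nearest to Hes7, neighbours of Per1.

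Per2 had 1 peak in each list other than that of I-BET, at the end of its extent with the higher coordinate. It ranked 1913 without treatment, 2473 with RANKL, 1458 with both, and 1461 in the I-BET list, at chr1:91458972-91459822. The I-BET list added 4 peaks: 3 of these lay on the neighbouring gene Hes6, at ranks 27863, 16781 and 21808, and 1 lay inside Per2 at rank 36284, near the bottom of the list.

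Cry1 and Cry2 encode the cryptochromes, the stronger inhibitors of the loop. Cry1 had 1 peak over its start site in every list, ranked 1925 without treatment, 747 with RANKL, 1881 with I-BET and 834 with both, and its CACGTG lay inside the peak in all 4. A further I-BET peak lay 9458 bp beyond the gene at rank 17367. The best peak of Cry2, at its start site, ranked 4536 of 8839 without treatment, 906 with RANKL, 4527 with I-BET and 331 with both. In the same order its percentiles were 51.3, 8.32, 12.3 and 5.25, which do not show a change between lists of different length. A site inside Cry2, centred 2720 bp downstream of the start, was listed with RANKL (rank 3599) and with I-BET (rank 14502) and in neither of the others.

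**Figure D2:**
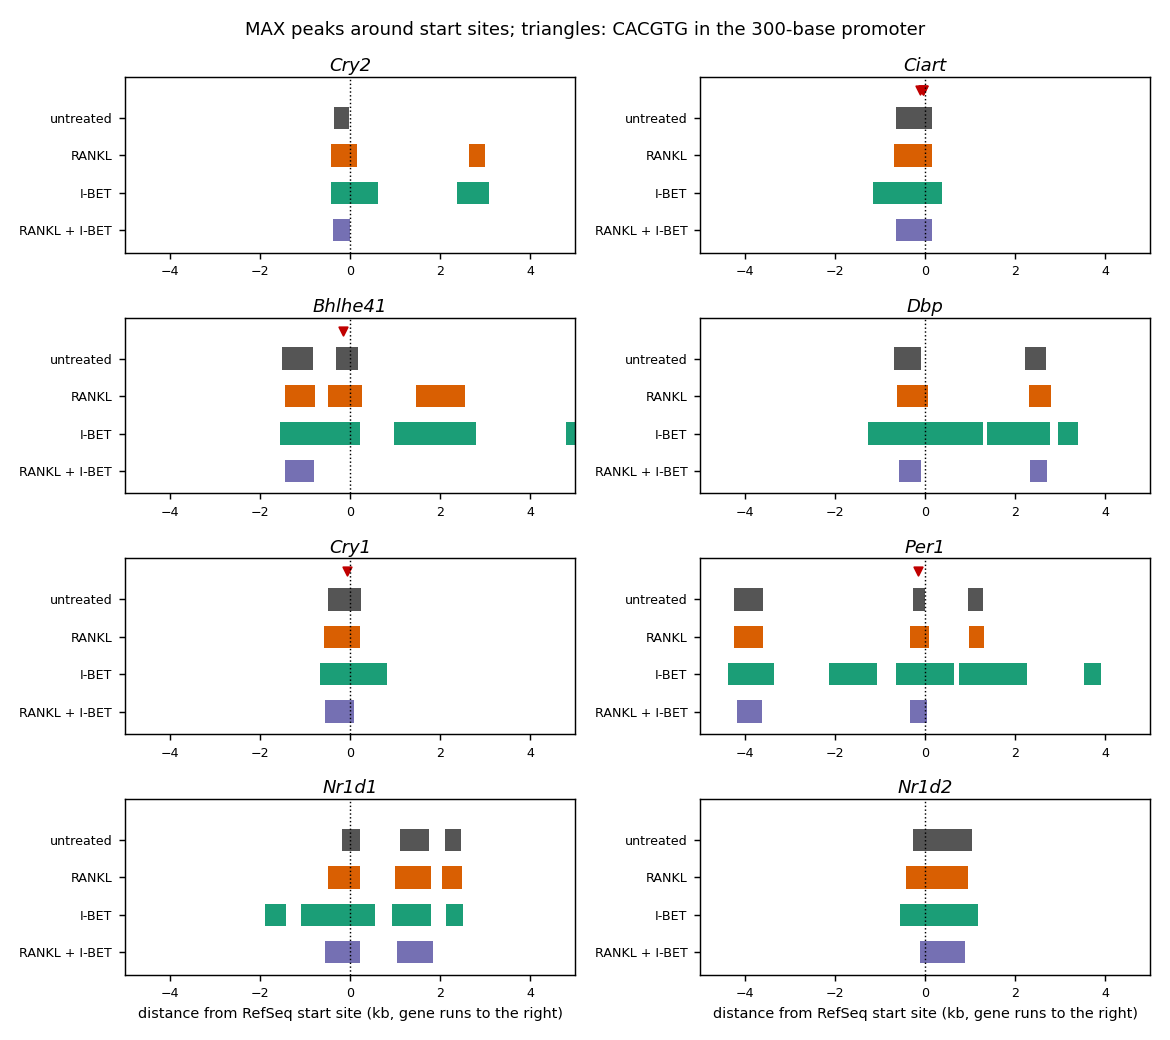
Listed MAX peaks (bars) of the 4 treatments at the 8 clock genes with a RefSeq start site, by distance from that start (x axis, kb, from 5 upstream to 5 downstream), with triangles for CACGTG in the promoter. Bars cover the start site or lie beside it in every panel, except for Bhlhe41 with RANKL and I-BET, where the bar lies upstream. For Per1 distances are from the upstream of its 2 starts.

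Dbp encodes a transcription factor of the PAR bZIP family whose level follows the clock closely, and E-boxes inside the gene are known to take part in its control. It had 6 peaks with I-BET and 3 in each other list. The start-site peak, which in every list also reaches the end of Car11, ranked 2417, 1127, 1328 and 1663 for untreated, RANKL, I-BET and both. The site inside the gene, which in untreated cells spans chr7:45707459-45707928, ranked higher in each list, at 1393, 546, 424 and 539. Whether it lies in an exon or an intron was not determined, since the gene table holds extents only. A further site in all 4 lists, 7281 bp beyond the gene and overlapping Sphk2 and Rpl18, ranked 1297, 1077, 1045 and 3704. The other 3 sites were in the I-BET list alone: 1 inside Dbp at rank 23404, and 2 on Sphk2 and Rpl18 at ranks 9404 and 15097. The sites on these neighbours were counted for Dbp because of the 10 kb window.

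Bhlhe40 and Bhlhe41, also called Dec1 and Dec2, encode repressors that bind E-boxes themselves. Bhlhe40 had a pair of peaks in the untreated, RANKL and combination lists, and 1 peak of 3519 bp with I-BET that covered both, at rank 1150. The outer peak of the pair ranked 2611, 813 and 738, and the peak at the end of the extent 2542, 2758 and 2494. The lower count with I-BET is therefore a joined peak and no loss. Bhlhe41 had its best peak in all 4 lists outside the gene, 2083 bp beyond its 3' end, at ranks 1110, 2378, 584 and 1624 for untreated, RANKL, I-BET and both.

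At the start site of Bhlhe41 a peak that covers CACGTG ranked 2395 in untreated cells, 6112 with RANKL and 1414 with I-BET. With both compounds no peak covered it. The only peak there lay upstream, at chr6:145866209-145866855 and rank 4951 of 6307. A peak at that upstream place was also listed in untreated cells (rank 6083) and with RANKL (rank 9586), and the I-BET peak of 1778 bp spanned both. Of the 9 promoters, all overlapped a MAX peak in every list but that of the combination, where 7 did, the exceptions being Bhlhe41 and the downstream start of Per1. Of all promoters 15.3%, 18.3%, 35.6% and 11.8% overlapped a MAX peak for untreated, RANKL, I-BET and both. Of the 6 CACGTG copies, all lay inside a MAX peak in the first 3 lists and 5 with both.

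Across all 32851 promoters, a MAX peak was more frequent where CACGTG was present. In untreated cells 38.4% of the 2349 promoters with CACGTG overlapped a MAX peak and 13.5% of those without, with RANKL 41.8% and 16.5%, with I-BET 56.3% and 34.03%, and with both compounds 34.4% and 10.01%. For MYC in untreated cells the shares were 3.11% and 0.393%. MYC overlapped 0 of the 9 clock promoters in every list, and 0.588%, 0.578%, 0.0304% and 0.00913% of all promoters for untreated, RANKL, I-BET and both. The clock promoters with CACGTG (Ciart, Cry1, Per1 and Bhlhe41) and those without (Cry2, Dbp, Nr1d1, Nr1d2 and the downstream Per1 start) all carried MAX in untreated cells.

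**Figure D3:**
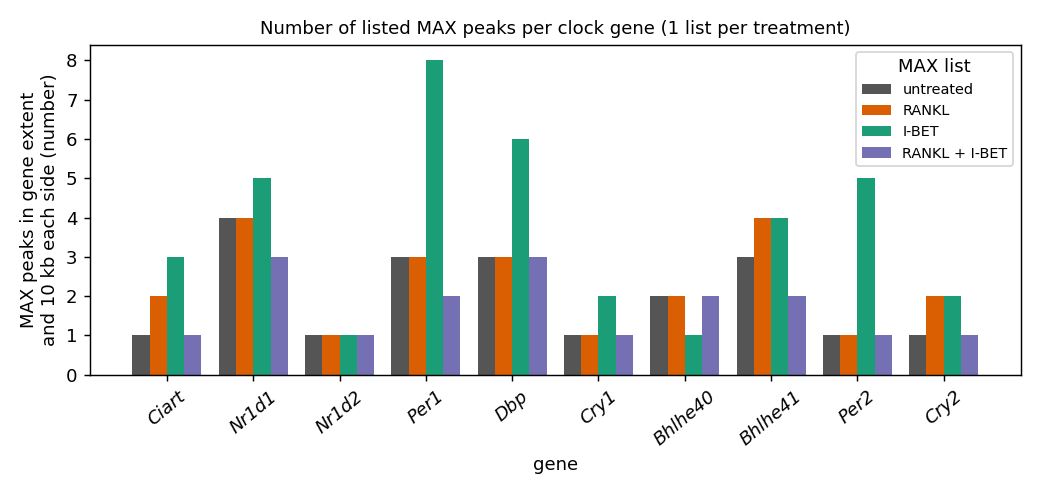
Number of listed MAX peaks in the extent of each clock gene and 10 kb on either side (y axis), with 1 bar per treatment and 1 list behind each bar. The I-BET bars of Per1, Dbp and Per2 stand at 8, 6 and 5, and Nr1d2 has 1 peak in every list.

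Merged over the 4 lists, the MAX peaks of the 10 genes formed 37 regions, of which 16 were in all 4 lists and 16 in the I-BET list alone. Overlapping peaks were joined in a chain, so a wide I-BET peak can join separate sites. The region at the Bhlhe41 start counts as in all 4 lists in this way, though its combination peak lies upstream. Of all 31005 merged regions in the windows of protein-coding genes, 14.0% were in all 4 lists and 65.5% in the I-BET list alone. Each of the 10 genes had at least 1 region in all 4 lists, and Nr1d1 and Dbp had 3. Of the 16 regions in all 4 lists, 13 touched the gene's own extent and 15 had the clock gene as a nearest protein-coding gene, against 5 and 8 of the 16 with I-BET alone. These locations were not counted for the regions of all genes, so they are no result about the clock genes. A further 3 regions were listed with RANKL and with I-BET but in neither other list: at Cry2, in Bhlhe41 and at Mrps21, a neighbour of Ciart. The last 2, inside Per1 and Nr1d1, were in all lists except that of the combination.

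The RANKL list was set beside the untreated list, since RANKL starts osteoclast formation. None of the 10 genes gained its first MAX peak or lost its last one, while 7.99% of all genes gained a first peak and, of the 8175 genes with a peak in untreated cells, 8.23% lost their last (3.07% of all genes). All 20 untreated peaks at the clock genes were listed again, against 83.1% of untreated peaks at all protein-coding genes. Of these 20, 11 were in the top 25% of the untreated list, where 98.9% of peaks at all genes were listed again, and 9 ranked lower, where it was 77.6%. Of the 23 peaks with RANKL, 3 were new (33.0% at all genes). The new ones were at Cry2, in Bhlhe41 and at Mrps21, ranked 3599, 8111 and 5974.

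With I-BET alone, again 0 of the 10 genes gained or lost MAX (27.7% of all genes gained a first peak, and 0.257% of those with a peak in untreated cells, or 0.0959% of all genes, lost their last). No gain was possible in either comparison, since all 10 had MAX in untreated cells. All 20 untreated peaks were listed again (98.0% at all genes, 99.8% in the top 25% and 97.4% below it), and 19 of the 37 I-BET peaks were new (76.1% at all genes). Among the 6307 top-ranked I-BET peaks, as many as the shortest MAX list holds, were 18 of the 37. The median width of the I-BET peaks at the clock genes was 854 bp, against 480 bp for the whole list. In the other lists it was 588, 645 and 546 bp for untreated, RANKL and both, against 443, 483 and 415 bp. The whole lists include peaks away from genes, and the widths were not compared at equal rank.

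The combination was compared with RANKL and with I-BET alone to see whether the inhibitor alters binding in induced cells. All 10 genes, each with a peak in both single treatments, also had one in the combination. Of the 9250 genes with a MAX peak in the RANKL list, 32.2% had none in the combination, and of the 14223 in the I-BET list 53.8%. Over all protein-coding genes, most of which had no peak to lose in the RANKL list, these losses are 13.6% and 35.0%, and the gains 1.35% and 0. Of the 23 RANKL peaks at the clock genes 17 were listed again, and of all RANKL peaks at protein-coding genes 52.5%. The rank of a peak bears on this comparison. In the top 25% of the RANKL list, 15 of 16 clock peaks were listed again, and 92.3% of the peaks at all genes. Among lower-ranked peaks it was 2 of 7 and 39.0%. This split is coarse and does not match rank within its parts. In the top 10% of the list were 47.8% of the clock RANKL peaks, against 10.5% at all genes. A comparison at equal rank was not made.

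The 6 RANKL peaks without a counterpart lay at Per1 (the downstream start, rank 5804), Cry2 (inside, 3599), Nr1d1 (inside, 2612), Ciart (on Mrps21, 5974) and Bhlhe41 (8111 and 6112). Of the 37 I-BET peaks 16 were listed again with both compounds (17.6% at all genes). In the top 25% of the I-BET list it was 16 of 20 clock peaks and 55.2% of the peaks at all genes, and among lower-ranked peaks 0 of 17 and 3.36%. This split does not match rank, since 40.5% of the clock I-BET peaks were in the top 10% of the list, against 11.2% at all genes. Whether the clock peaks differ from others of equal rank was not tested. The 17 peaks of the combination all overlapped a peak of each single treatment, where 10.1% of such peaks at all genes had no RANKL counterpart and 0.566% no I-BET counterpart.

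**Figure D4:**
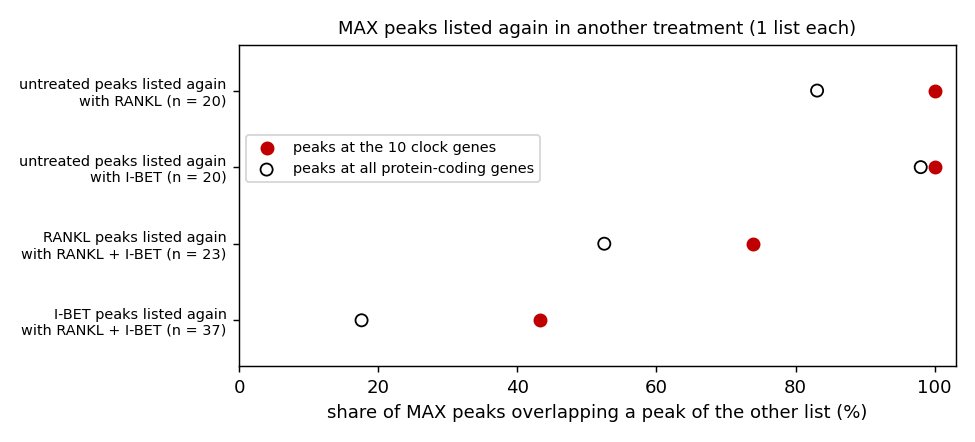
Share of the MAX peaks of 1 list that overlap a peak of another list (x axis, percent), for peaks at the 10 clock genes (filled) and at all protein-coding genes (open), with the number of clock peaks beside each row. All 20 untreated peaks at the clock genes overlap a RANKL and an I-BET peak, and the filled point lies to the right of the open one in each row.

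Other genes of the clock were looked up by the same rule. Of 17 further clock genes, 8 had a MAX peak without treatment (37.4% of all protein-coding genes), 11 with RANKL (42.3%), 16 with I-BET (65.0%) and 8 with both (30.0%), and 0 had a MYC peak in any list. The median percentile of their best peak was 42.6, 40.2, 18.7 and 46.9, close to that of all genes with a peak. The activator gene Arntl had a peak at ranks 1114, 2366 and 14169 for untreated, RANKL and I-BET and none with both. Clock was listed with RANKL, I-BET and both at ranks 10065, 7459 and 5587, and Npas2, a relative of Clock, in all 4 lists at 6347, 2851, 1284 and 3466.

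Among the relatives of the 10 genes, Per3 had a peak in all 4 lists at ranks 3222, 4713, 3037 and 2478. Tef, a PAR bZIP gene like Dbp, ranked highest of the 17 with RANKL, at 899, 383, 1509 and 377. Hlf, another gene of that family, was listed with RANKL (rank 9695) and I-BET (8509). The kinase genes Csnk1d and Csnk1e, whose products mark PER proteins for degradation, were in all 4 lists. Rorb was in none, and Nfil3, Arntl2, Fbxl21 and Timeless were among the genes in the I-BET list alone.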

How the data were processed

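The 12 libraries of the labels are MYC, MAX and input at 4 treatments, and the 4 input libraries have no peak list and were not used here. Per the submitters' processing notes, the tools included Bowtie2 (2.3.4.1) and MACS2 (2.1.1.20160309), on mm10, which is GRCm38. Per the peak names, the authors joined peaks of 3 call sets in every row. The deposited score is the authors' value per peak and was used to rank peaks within a list only. How input was used, the calling thresholds and the read depth are not known here. Starts were raised by 1 to count from 1.

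Gene extents and start sites came from RefSeq (GRCm38.p6). Overlap of 1 bp or more with the extent and 10 kb each side assigned a peak to a gene. Exons and introns were not told apart. The genes, lists and motifs were chosen with earlier results of these data known, and the split by rank (top 25%) and the window at start sites were added after the data were seen. Named genes were the 10 genes, the further clock genes, 6 clock output genes, cell type markers, neighbours at their peaks and the 3 genes nearest in percentiles to the gene of lowest mean percentile. Thra falls outside this rule and was named after its values were seen. Alternatives covered window, score, list length, overlap, width and nearest gene. On simulated peaks 200 of 200 genes given a peak were recovered, with 0 differences from bedtools. The code used Python 3.11.15 with numpy 2.4.6 and pandas 2.3.3. Values of some further clock genes are not reported here.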

Additional observations from a re-analysis of the deposited data

How the results depend on the processing

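The number of clock genes with a MYC peak was 0 under every alternative, and the number with a MAX peak was 10 in each list, except for 9 in untreated cells in the higher-scoring 50% of each list (Cry2 was missing) and 8 where windows were set at start sites, which 8 genes have. In the higher-scoring 50%, 1 gene therefore gained a MAX peak against untreated cells, Cry2 in both the RANKL and the I-BET list. Its best untreated peak stood at percentile 51.3, just outside the cut. The share of all genes gaining a peak at this cut was not counted. The number of MAX peaks moved with the window. For untreated, RANKL and I-BET it was 33, 36 and 69 with 25 kb each side. With 1 kb each side it was 23 for I-BET, and with as many top peaks as the shortest list holds, 18. Within 1 kb of start sites it was 10, 11, 11 and 8 for untreated, RANKL, I-BET and both. These moves follow from the size of the window or list. Read depth is unknown from these files, and absence from a list was not tested. No paired analysis was possible because each group has 1 list.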

Other observations

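Genes through which the clock acts on metabolism and the cell cycle also carried MAX. Of 6 such genes with reported E-boxes, 6 had a MAX peak in the RANKL list (42.3% of all protein-coding genes), 6 in the I-BET list (65.0%), and 5 each in the untreated list (37.4%) and that of the combination (30.0%), and 0 had a MYC peak. Por, the electron donor of cytochromes P450, had the best-placed peak of the 6 in untreated cells, at rank 195, and ranked 266 with RANKL, 170 with I-BET and 928 with the combination. Usp2, a deubiquitinase gene, ranked 273, 220, 475 and 510. Wee1, a kinase that holds back mitosis, ranked 659, 957, 561 and 1416. Nampt, the rate-limiting enzyme of NAD salvage, ranked 1635, 1004, 464 and 2105. Noct, a phosphatase gene, ranked lower at 7467, 5685, 5307 and 2642. Alas1, the first enzyme of heme synthesis, was listed with RANKL at rank 10515 and with I-BET at 7837. Lists of different length do not allow these ranks to be read as changes.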
